A study of Mus musculus with 10 samples.

Results

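Testis RNA of 10 mice was read for 9 genes of glucose and lactate transport. They were the hexose transporters Slc2a1, Slc2a3, Slc2a5 and Slc2a8, the monocarboxylate carriers Slc16a1, Slc16a3 and Slc16a7, and the accessory membrane proteins Bsg and Emb. Probes were taken where their accession belonged to one of these genes, which gave 12 probes for 9 of the 16836 genes tested. All 12 probes were well above background on all 10 arrays, so that the filter for dim probes removed none of them. Each gene is described by its brightest probe, and the other probes of Slc2a3 and Slc16a7 stand beside it. Labels number no replicates, and the numbers given to arrays here follow accession order within a group and pair no animals.

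The animals were males of the inbred strain C57BL/6N killed at 6 weeks of age. The 5 C offspring were born to dams with free access to chow and stayed with their own mothers. The 5 R offspring were born to dams fed 50% of what control dams ate, starting 6.5 days post coitum, and unrelated control dams raised them, so that the prenatal diet and the fostering cannot be told apart. After weaning both groups ate freely. One testis per animal was hybridised to a 1-colour Agilent mouse array. The sources used here do not name litters, so each p-value assumes that the 10 animals are independent.

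Sertoli cells, the nurse cells of the seminiferous tubule, take up glucose and release lactate, which spermatocytes and spermatids use as fuel behind the blood-testis barrier. Facilitative hexose transporters of the Slc2a family carry sugar down its gradient, and carriers of the Slc16a family move lactate or pyruvate together with a proton. The carriers need a small immunoglobulin-type partner to reach the cell surface, basigin (Bsg) for those encoded by Slc16a1 and Slc16a3 and embigin (Emb) for the one encoded by Slc16a7. Male mice that lack basigin are infertile.

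In the R testes 4 of the 9 genes were lower, namely Slc16a1, Emb, Slc2a8 and Bsg, and Slc2a5 was higher. The falls ranged from 1.31-fold to 1.65-fold and the rise was 1.22-fold (n = 5 per group, limma across all probes, adjusted p at most 0.0315). Slc2a1, Slc2a3, Slc16a3 and Slc16a7 did not pass by their brightest probe. Over all genes tested 35.6% were called, 20.6% lower and 15% higher. A gene is called where its adjusted p is under 0.05. The median log2 difference, R minus C, was −0.40 over the 9 genes and −0.03 over all genes.

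Values are log2 signals, that is, the log2 of the scanner's processed intensity minus the log2 of the same array's 75th percentile. That percentile lay between 804 and 1019 over the 10 arrays, no spot was saturated, and 56.6% to 67.4% of the spots were well above background. The arrays lay on 2 slides, with 2 C and 4 R on slide 1 and 3 C and 1 R on slide 2. C replicate 2 stood apart on the first principal component, at −123 beside −29.5 to −13.9 for the other C arrays and 33.6 to 49.2 for the R arrays. In the authors' deposited table the ratios are reproduced only where R replicate 1 counts as a control and C replicate 5 as a test array, which goes against the group labels. The labels are followed here. With the table's grouping limma called 0 genes (1373, or 8.16%, at an unadjusted p under 0.05), and without these 2 arrays it called 2704 (16.1%) in place of 6001. In a whole testis, fewer cells of a type and less RNA per cell cannot be told apart.

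Of the lactate carriers, Slc16a1 fell. It encodes the widely expressed carrier MCT1, which moves lactate and pyruvate in either direction. Its log2 signal was 0.47, 0.83, 0.05, 0.08 and 0.39 in C replicates 1 to 5 and −0.17, −0.22, −0.43, −0.55 and −0.42 in R replicates 1 to 5. The groups did not overlap, and the highest C arrays were both on slide 1. The mean fell from 0.36 ± 0.32 to −0.36 ± 0.16 (SD), a 1.65-fold decrease (95% interval 1.31 to 2.07, adjusted p = 0.00635). The difference of −0.72 was −0.99 within slide 1 and −0.60 within slide 2, and it was −0.76 without R replicate 1 and C replicate 5 (adjusted p = 0.0306). Slc16a1 also met the study's own criterion, a fold beyond 1.5 or 0.66 with an adjusted p under 0.05, as 9.95% of all genes did.

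Slc16a3 encodes MCT4, the carrier that strongly glycolytic cells use to release lactate. Its log2 signal was −0.79, 0.14, −0.52, −0.30 and 0.20 in the C arrays and −1.02, −0.43, −0.69, −0.63 and −0.80 in the R arrays, in replicate order. C replicates 1 and 3 lay among the R arrays, and the spread in C was the widest of the 9 genes (SD 0.42). The difference of −0.46 ± 0.19 (SE) did not pass (adjusted p = 0.0822), and its 95% interval ran from 1.02-fold to 1.85-fold lower. Without C replicate 1 it passed (−0.59, adjusted p = 0.0287).

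Slc16a7 encodes MCT2, a carrier of high affinity found on the sperm tail. Its brightest probe read 3.51, 3.34, 3.77, 3.89 and 3.78 in C and 3.71, 3.59, 3.81, 3.68 and 3.66 in R, with no R value outside the C range. The difference was 0.03 ± 0.11 (SE, adjusted p = 0.819), with a 95% interval from 0.869-fold to 1.20-fold in R over C. A second probe of the same transcript differed by 0.01 ± 0.11, with an interval from 0.851-fold to 1.18-fold. The third probe, annotated to a predicted transcript (XM_006513408), read −3.94, −4.24, −4.01, −3.75 and −3.74 in C and −3.75, −3.70, −3.80, −3.34 and −3.55 in R, and it did not pass (0.31 ± 0.12, adjusted p = 0.0635). With slide as a blocking term it passed (0.39, adjusted p = 0.0259), and with quantile normalization or the array median as reference the difference was 0.09.

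The RNA of both partner proteins fell. Bsg read 3.13, 3.28, 3.19, 3.24 and 3.36 in the C arrays and 2.76, 2.78, 2.97, 2.75 and 2.98 in the R arrays. Every R array lay below every C array, and both groups were tight (SD 0.09 in C and 0.12 in R). The decrease was 1.31-fold (95% interval 1.17 to 1.47, adjusted p = 0.00477), with log2 differences of −0.39 within slide 1 and −0.28 within slide 2.

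Emb, the partner of MCT2, read −0.30, −0.19, −0.57, −1.0 and −1.06 in C and −1.18, −1.27, −1.36, −1.28 and −1.18 in R. The R arrays were close together (SD 0.08), while the C arrays were all higher and spread widely (SD 0.39). C replicates 4 and 5 lay nearest to the R arrays. The decrease was 1.54-fold (95% interval 1.20 to 1.995, adjusted p = 0.0163), and Emb met the study's criterion. Its log2 difference of −0.63 was −1.02 within slide 1 and −0.30 within slide 2, and it was −0.52 without C replicate 2 (adjusted p = 0.0221). The authors' deposited table, with its own grouping, lists this probe with a log2 ratio of −0.58, a p-value of 0.0194 and a q-value of 0.515. Every probe listed there has the same q-value. The other probe of the 12 in that table is the third Slc16a7 probe, for which the authors' deposited table gives a log2 ratio of 0.34 and a p-value of 0.0470.

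**Figure D1:**
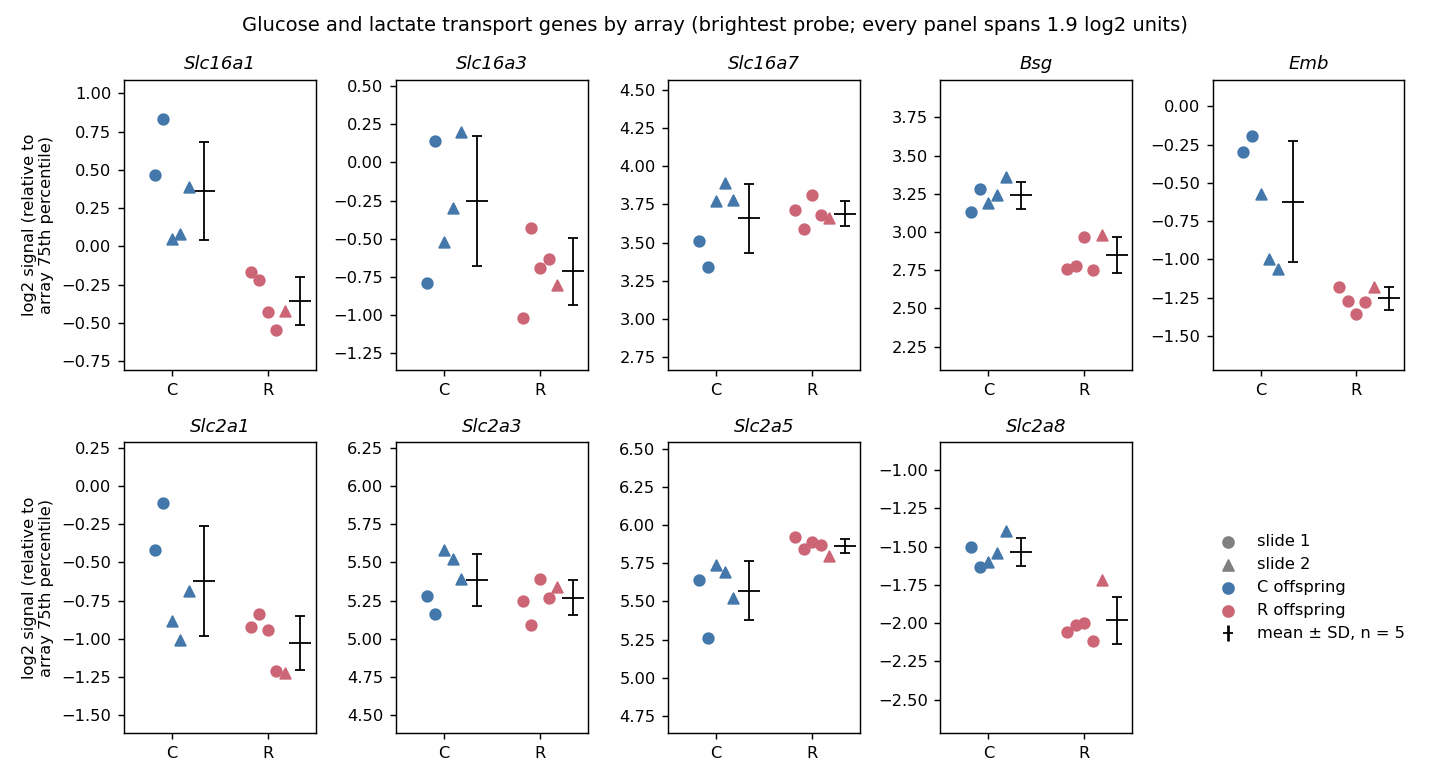
Log2 signal of the brightest probe of each gene on each array, by group (circles slide 1, triangles slide 2), with the group mean ± SD (n = 5). The R arrays lie below all C arrays for Slc16a1, Bsg, Emb and Slc2a8 and above them for Slc2a5, and the groups overlap for Slc16a3, Slc16a7, Slc2a1 and Slc2a3.

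Among the hexose transporters Slc2a8 fell. It encodes GLUT8, a transporter held mostly on internal membranes and abundant in testis. It read −1.50, −1.63, −1.60, −1.54 and −1.40 in C and −2.06, −2.01, −2.0, −2.12 and −1.72 in R. The groups did not overlap, and the R array nearest to C was replicate 5, which slide 2 held. The decrease was 1.36-fold (95% interval 1.20 to 1.56, adjusted p = 0.00472), with log2 differences of −0.48 within slide 1 and −0.21 within slide 2.

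Slc2a5, which encodes the fructose transporter GLUT5 of intestine and sperm, was the member that rose. It read 5.64, 5.26, 5.74, 5.69 and 5.52 in C and 5.92, 5.84, 5.89, 5.87 and 5.80 in R. The R arrays lay within a narrow band (SD 0.05) just above the highest C array. The increase was 1.22-fold (95% interval 1.06 to 1.41, adjusted p = 0.0315). This call depended on the reference and on single arrays: with each array's median as reference the difference was 0.08 (adjusted p = 0.443), with no filter on dim probes the adjusted p was 0.0770, and without C replicate 5 or any 1 of R replicates 1 to 4 the adjusted p was 0.0513 to 0.0712. Without R replicate 1 and C replicate 5 together it was 0.122.

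Slc2a1, which encodes GLUT1, the basal glucose transporter of most cells, read −0.42, −0.11, −0.88, −1.01 and −0.69 in C and −0.92, −0.84, −0.94, −1.21 and −1.22 in R. C replicates 3 and 4 lay among the R arrays, and the C arrays of slide 1 lay above those of slide 2. The difference of −0.40 ± 0.17 (SE) did not pass (adjusted p = 0.0766, 95% interval 1.02-fold to 1.71-fold lower). It passed with slide as a blocking term (−0.59, adjusted p = 0.00603, 51.6% of all genes called) and within slide 1 (−0.71, adjusted p = 0.0187, 39.7% called), and within slide 2 it was −0.36 (adjusted p = 0.245).

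Slc2a3, which encodes GLUT3, a high-affinity glucose transporter of neurons and sperm, had 2 probes that differed in their response. The brightest probe, A_52_P354744, read 5.28, 5.16, 5.58, 5.52 and 5.39 in C and 5.25, 5.09, 5.39, 5.27 and 5.34 in R. The groups overlapped, and the difference of −0.12 ± 0.09 (SE) did not pass (adjusted p = 0.337). With arrays weighted by their quality it passed as lower (−0.22, adjusted p = 0.0257), as it did with the array median as reference (−0.33, adjusted p = 0.0167). The other probe, A_51_P384222, has the same accession (NM_011401) and read −0.88, −1.18, −0.57, −0.63 and −0.99 in C and −0.25, −0.22, −0.20, −0.15 and −0.06 in R. Every R array lay above every C array, and the increase was 1.60-fold (95% interval 1.34 to 1.91, adjusted p = 0.00320). Over all probes 21.4% were called higher.

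A single scaling constant per array cancels in the difference between these probes on the same array. A shift that differs between bright and dim probes would not cancel. With quantile normalization, R minus C was −0.10 for the brightest probe and 0.65 for the other. A_51_P384222 minus A_52_P354744 was −6.16, −6.34, −6.15, −6.15 and −6.38 in C and −5.49, −5.31, −5.60, −5.41 and −5.40 in R. It changed from −6.23 ± 0.12 to −5.44 ± 0.11 (SD), by 0.79 (exact 2-sided permutation p = 0.00794, the smallest that 5 against 5 arrays allow, adjusted p = 0.0238 over 3 pairs). On both slides all R arrays were above all C arrays. For Slc16a7 the second probe minus the brightest changed by −0.03 (exact permutation p = 0.389) and the third minus the brightest by 0.28 (exact permutation p = 0.0556). Over the mean of its probes Slc2a3 was called higher (0.28, adjusted p = 0.0464), so that the direction given for this gene depends on the probe. Where the probes lie within the transcript was not analysed here.

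**Figure D2:**
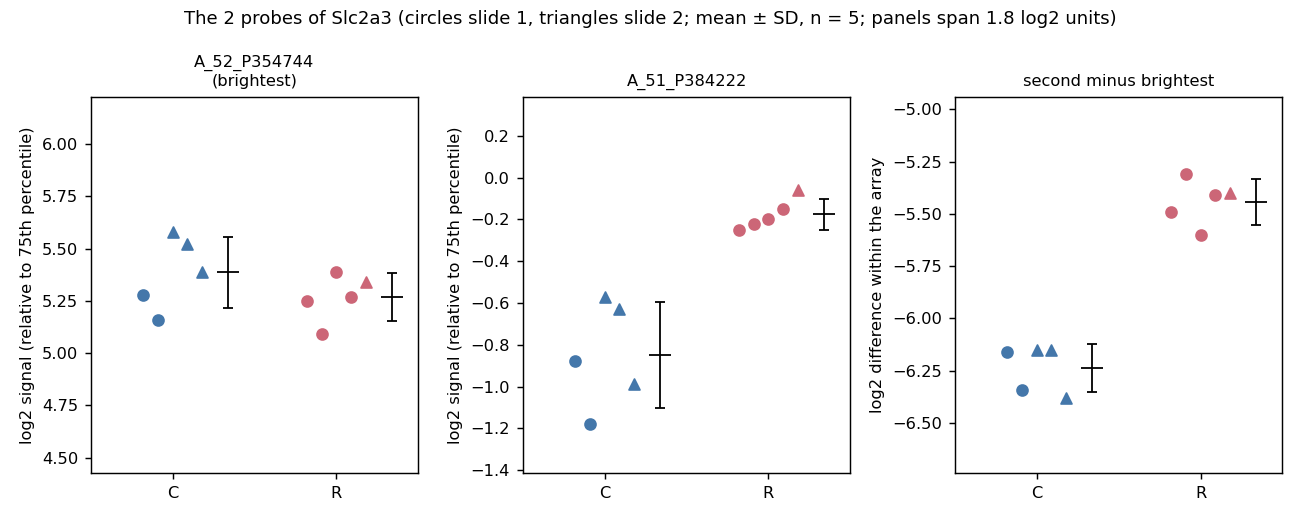
Log2 signal of the brightest and the second probe of Slc2a3 and their difference within each array (circles slide 1, triangles slide 2), with group mean ± SD (n = 5). The groups overlap for the brightest probe and are apart for the second probe and for the difference, which lies between −6.38 and −6.15 in C and between −5.60 and −5.31 in R.

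Promoters of 6 of the 9 genes were found in the RefSeq promoter table of GRCm38.p6, which runs from 250 bases before to 50 after a gene's start. Those of the genes that moved are shown, 3 that fell and Slc2a5, which rose, so that they can be set side by side. Capitals mark GC boxes (GGGCGG on either strand) and CCAAT boxes (CCAAT on either strand).
Slc16a1, chr3:104638414-104638713, plus strand: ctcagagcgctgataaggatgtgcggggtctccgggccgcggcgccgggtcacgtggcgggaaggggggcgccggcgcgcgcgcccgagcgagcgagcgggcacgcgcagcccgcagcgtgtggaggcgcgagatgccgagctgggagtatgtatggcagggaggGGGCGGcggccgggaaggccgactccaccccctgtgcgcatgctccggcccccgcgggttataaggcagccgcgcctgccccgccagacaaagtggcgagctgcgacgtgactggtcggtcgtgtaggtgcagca
Emb, chr13:117220323-117220622, plus strand: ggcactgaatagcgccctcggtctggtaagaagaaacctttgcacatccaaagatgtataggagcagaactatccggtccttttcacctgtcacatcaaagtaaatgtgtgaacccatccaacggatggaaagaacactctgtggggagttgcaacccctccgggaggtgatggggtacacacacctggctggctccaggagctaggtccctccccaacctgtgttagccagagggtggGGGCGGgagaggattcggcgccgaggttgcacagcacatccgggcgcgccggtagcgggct
Slc2a8, chr2:32982034-32982333, minus strand: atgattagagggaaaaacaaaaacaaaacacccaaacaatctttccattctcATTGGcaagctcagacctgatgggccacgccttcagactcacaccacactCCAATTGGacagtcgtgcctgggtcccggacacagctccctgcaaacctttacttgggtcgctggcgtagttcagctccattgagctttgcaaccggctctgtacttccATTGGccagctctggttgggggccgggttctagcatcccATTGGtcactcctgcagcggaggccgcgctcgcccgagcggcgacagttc
Slc2a5, chr4:150119094-150119393, plus strand: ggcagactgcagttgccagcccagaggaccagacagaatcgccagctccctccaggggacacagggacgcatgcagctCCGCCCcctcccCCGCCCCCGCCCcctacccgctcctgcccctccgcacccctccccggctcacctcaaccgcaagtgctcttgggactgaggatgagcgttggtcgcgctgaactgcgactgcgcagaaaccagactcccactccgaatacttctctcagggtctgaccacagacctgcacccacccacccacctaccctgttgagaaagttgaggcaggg
The Slc16a1 promoter had the highest GC content of the 4, at 73.7%, with 42 CpG dinucleotides, against medians of 52.7% and 7 over 32851 promoters. Those of Emb, Slc2a8 and Slc2a5 had 57.7%, 55.7% and 65.3%. A GC box was found once in Slc16a1 and once in Emb, 3 times in Slc2a5 and not in Slc2a8, and 35.7% of all promoters held one. Slc2a8 had 5 CCAAT matches, which 37.4% of promoters held at least once, and the other 3 had none. The E-box CACGTG was found once in Slc16a1, where it overlaps 2 of the 3 matches to the hypoxia core ACGTG, and in 7.15% of all promoters (ACGTG in 19.6%). The androgen half-site AGAACA was found once in Emb and in 19.0% of all promoters. No motif searched was shared by the 3 promoters of the genes that fell. A match is a run of letters and not a site shown to be used.

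Read together, 5 of the 9 genes had groups that did not overlap, 4 with R lower and 1 with R higher, where 29.1% of all genes did so, 16.5% with R lower and 12.7% with R higher. The reference mattered for the size of the differences. With each array's median in place of the 75th percentile, the median over all genes moved by −0.22, to −0.24. That of the 9 genes moved to −0.62. Such a change of reference moves every gene alike, so the distance of 0.38 between these medians could not change and tests nothing. With this reference 7 of the 9 genes were called lower (Slc2a1, the brightest Slc2a3 probe and Slc16a3 in addition) and none higher. Of all genes 41.9% were called in either direction. The share called lower alone was not worked out, so the 7 of 9 has no like share beside it. The second probe of Slc2a3 still rose with the array median as reference (0.46, adjusted p = 0.00710).

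**Figure D3:**
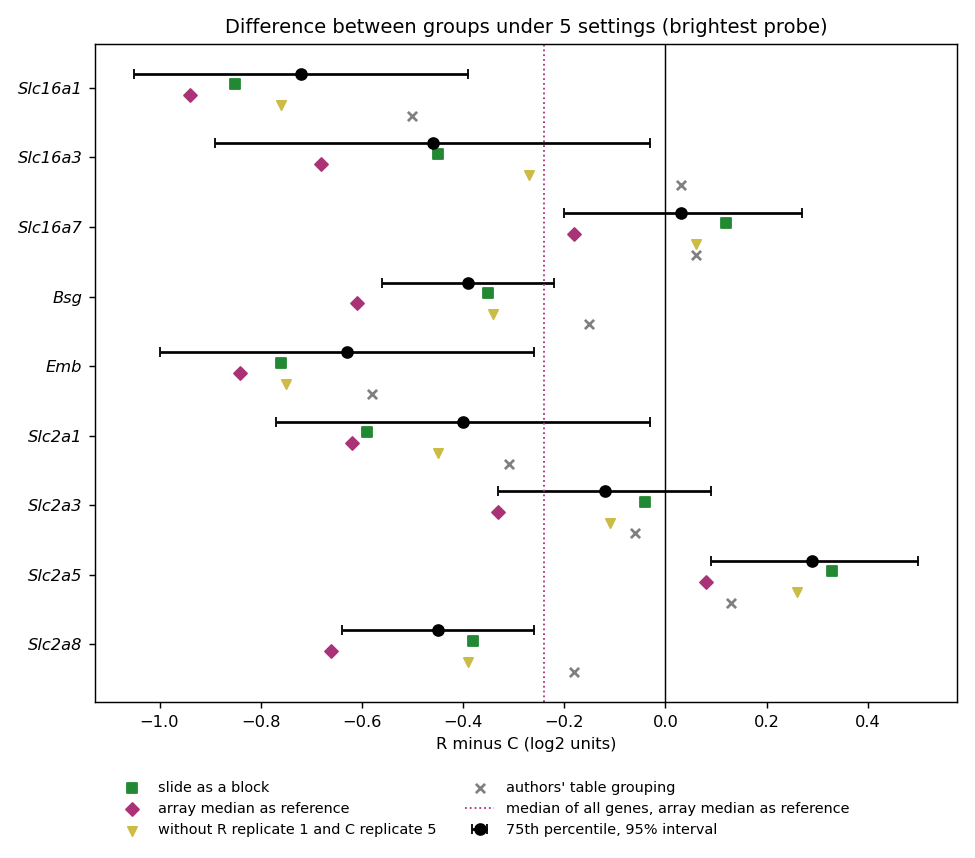
Log2 difference, R minus C, of the brightest probe of each gene with its 95% interval (black), and the same difference with the slide as a block, with each array's median as reference, without 2 arrays, and with the authors' table grouping. Slc16a1, Bsg, Emb and Slc2a8 are below 0 at every setting shown, while the sign of Slc16a7 differs between settings and Slc16a3 is at 0.03 with the authors' table grouping.

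The 4 falls did not rest on 1 array, since Slc16a1, Bsg, Emb and Slc2a8 were called lower each time any 1 of the 10 arrays was left out. Without R replicate 1 and C replicate 5 all 4 were called as well. With the authors' table grouping none was called, and the log2 differences were −0.50, −0.15, −0.58 and −0.18. Within slide 2, which held 1 R array, no gene of the whole table was called (3540, or 21.0%, at an unadjusted p under 0.05).

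The C arrays varied more than the R arrays for 7 of the 9 genes, Slc2a8 and Bsg being the exceptions, and for 77.7% of all genes. Without C replicate 2 the C arrays varied more for 7 of the 9 genes and for 60.0% of all genes. Within the C group the arrays of slide 1 and of slide 2 did not overlap for Slc2a1, Slc16a1 and Emb, which were higher on slide 1, nor for Slc2a3 and Slc16a7, which were lower there. This held for 5 of the 9 genes and for 52.3% of all genes, so that slide or animals of that slide moved with the values within C, and their part was not tested.

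After the group means were subtracted, Slc2a1 and Slc16a1 ran together over the 10 arrays (Pearson r = 0.94), and Slc2a1 ranked 152nd of 16835 genes by likeness to Slc16a1. Slc16a1 ran against Slc2a3 (−0.87, rank 15652) and Slc16a7 (−0.81, rank 14590), while with its partner Bsg it had an r of 0.00. Slc16a7 and its partner Emb ran in opposite directions (−0.86). Emb ranked 15035th by likeness to Slc16a7, and Slc16a7 ranked 16676th by likeness to Emb. In each case other genes of the 16835 ran against the gene more strongly, so such values are not particular to these pairs. The genes most like each member were Rab10 and 5730409E04Rik for Slc2a1, Cyp4f41-ps and Csnk2a2 for Slc2a3, Tedc1 and Zdhhc4 for Slc2a5, and Nell1 and Cpa4 for Slc2a8. For the carriers they were Tceanc and Tmem242 (Slc16a1), Fam24a and Casp8ap2 (Slc16a3) and Best1 and 4931408C20Rik (Slc16a7), and for the partners Spem2 and Zfp472 (Bsg) and Fam98b and Tmcc3 (Emb). Their correlations lay between 0.935 and 0.990. They are a description of 10 arrays that share slide and scaling.

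Among other hexose transporters Slc2a12 was lower, and among other genes of the monocarboxylate group Slc16a4 and Nptn were lower. Of 10 other hexose transporters 5 were tested, and 1 fell and 0 rose (median 0.07). Slc2a12 encodes GLUT12 (1.57-fold, adjusted p = 0.0107). Slc2a2, Slc2a7 and Slc2a10 stayed at background on all 10 arrays. Of 14 other genes of the monocarboxylate group 9 were tested, and 2 fell and 0 rose (median −0.16). With slide as a blocking term or with the array median as reference the counts were 4 and 0. Those settings called 51.6% and 41.9% of all genes, in either direction, where the main fit called 20.6% lower and 15% higher. Slc16a4, an orphan carrier, was above background on 5 C and 3 R arrays, so that its difference of −0.73 (adjusted p = 0.00384) rests partly on dim spots, and with normexp background correction it was −0.32. The other was Nptn, the neuroplastin relative of Bsg and Emb (1.62-fold, adjusted p = 0.00953). The Nptn call was lost over the mean of its probes (−0.16, adjusted p = 0.237).

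Among glycolytic enzymes Pgam1 and Ldhb were lower and Hk1 and Pfkm higher. Of 18 widely expressed glycolytic enzymes 3 fell and 2 rose (median −0.05), or 7 and 2 with slide as a blocking term and 7 and 0 with the array median as reference. Of all genes tested 20.6% were called lower and 15% higher. With the slide term 51.6% of all genes were called, and with the array median 41.9%, in either direction. Hk1, the hexokinase that traps glucose in the cell, rose 1.22-fold and Pfkm, a phosphofructokinase subunit, 1.18-fold (adjusted p = 0.0131 and 0.0205). Over the mean of its probes Hk1 differed by 0.58 in place of 0.28. Neither passed with each array's median as reference (0.07 and 0.03) or without R replicate 1 and C replicate 5. Pgam1, a phosphoglycerate mutase, fell 1.43-fold and Ldhb, the lactate dehydrogenase subunit that favours pyruvate, 1.45-fold (adjusted p = 0.0105 and 0.0136). Ldha, the subunit that favours lactate, had a difference of 0.15 and Ldhc, the germ cell subunit, one of 0.04, and neither passed (adjusted p = 0.0548 and 0.597). Of the 6 forms made in male germ cells 1 fell and 0 rose (median 0.03). It was Pgk2, a phosphoglycerate kinase (1.15-fold, adjusted p = 0.0364). Its call was lost without C replicate 3 or 5 or any of R replicates 1 to 4, with an adjusted p of 0.0587 to 0.0882. It was also lost with slide as a blocking term (−0.17, adjusted p = 0.0569), with no filter on dim probes (0.100) and without R replicate 1 and C replicate 5 (0.146).

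Genes that carry pyruvate into the mitochondrion or act on pyruvate dehydrogenase were lower in 7 of 15 cases and higher in 1 (median −0.34). For this count and the next list, the shares over all genes tested were 20.6% lower and 15% higher. Pdk1, a kinase that switches pyruvate dehydrogenase off, fell 1.76-fold (adjusted p = 0.00230) and Mpc1, a subunit of the pyruvate carrier, 1.48-fold (adjusted p = 0.00514). Dld, the shared dehydrogenase subunit, fell 1.33-fold (adjusted p = 0.00233) and Pdha2, the germ cell form of the catalytic subunit, 1.27-fold (adjusted p = 0.00727). Over the mean of probes the difference was −0.31 in place of −0.81 for Pdk1 and −0.26 in place of −0.56 for Mpc1. Without R replicate 1 and C replicate 5 the counts were 7 lower and 0 higher, with 16.1% of all genes called. Of 10 genes that act on transporter abundance or traffic 4 fell and 0 rose (median −0.19). Txnip, a brake on glucose uptake, fell 1.57-fold and Hif1a, a hypoxia factor, 1.71-fold (adjusted p = 0.00840 and 0.0125). Prkaa1, a kinase subunit of the energy sensor AMPK, fell 1.16-fold and the growth factor receptor Igf1r 1.25-fold (adjusted p = 0.0223 and 0.0363). Txnip and Igf1r were not called over the mean of their probes (adjusted p = 0.0738 and 0.270). The Prkaa1 call was lost without R replicate 4 or 5 (adjusted p = 0.0503 and 0.0508), and that of Igf1r without C replicate 1, 2 or 5 or R replicate 1, 3 or 4 (0.0535 to 0.0832). Of the 4, Txnip alone was called without R replicate 1 and C replicate 5.

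**Figure D4:**
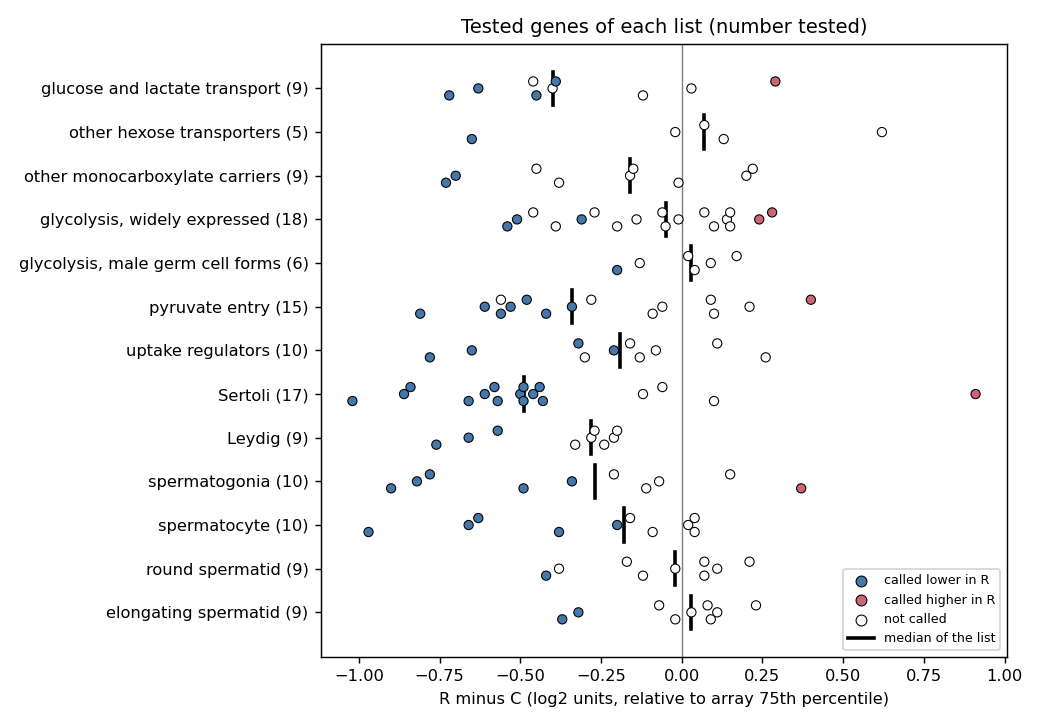
Log2 difference, R minus C, of every tested gene of each list, filled where limma called it, with the median of the list as a bar and the number tested in parentheses. Ldhc, Pgk2 and Gapdhs appear both in the germ cell glycolysis list and in a germ cell marker list. The medians of the transport genes (−0.40), pyruvate entry (−0.34) and Sertoli markers (−0.49) lie below those of both glycolysis lists (−0.05 and 0.03) and of round and elongating spermatid markers (−0.02 and 0.03).

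Markers of the cells that carry these transporters were read on the same arrays. For comparison with their counts, 20.6% of all genes tested were called lower and 15% higher. Without R replicate 1 and C replicate 5 the share of all genes called was 16.1%, in either direction. Of 17 tested Sertoli cell markers 13 fell and 1 rose (median −0.49, and 7 and 1 without R replicate 1 and C replicate 5), with the homeobox gene Rhox8 1.88-fold higher, Ctsl, a lysosomal protease, 2.03-fold lower and Cst9, a cystatin, 1.79-fold lower. Their summed linear signal, in units of the 75th percentile, was 289 to 427 in C and 240 to 295 in R, and Amh, a marker of immature Sertoli cells, stayed at background on all 10 arrays. Of 10 spermatogonial markers 5 fell and 1 rose (median −0.27), with sums of 27.2 to 45.3 in C and 21.0 to 23.9 in R. Those that fell included the meiotic switch Stra8 (1.72-fold) and the receptor Kit (1.77-fold). Gfra1 was the marker that rose (1.29-fold), and Zbtb16, Id4, Sall4 and Nanos3 were not called. Of 10 spermatocyte markers 5 fell and 0 rose (median −0.18, sums 334 to 407 and 320 to 342), with the axis protein Hormad1 1.96-fold lower (−0.97, and −0.54 over the mean of its probes). Ldhc and Pgk2 are also in the list of germ cell glycolytic forms, so that the Pgk2 fall is counted in both lists. Gapdhs is in that glycolytic list and among the elongating spermatid markers. Round spermatid markers had 1 lower of 9 (median −0.02, sums 98.7 to 126 and 106 to 125) and elongating spermatid markers 2 lower of 9 (median 0.03, sums 1302 to 1544 and 1349 to 1532). Leydig cell markers had 3 lower of 9 (median −0.28, sums 25.3 to 46.2 and 20.6 to 26.9, 0 lower without R replicate 1 and C replicate 5). The part of these markers in the values of the transport genes was not tested.

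Other cell types of the testis or its surroundings were also read, and the same shares of all genes (20.6% lower and 15% higher) apply to their counts. Macrophage markers had 6 lower of 10 (median −0.62, sums 3.80 to 6.19 in C and 2.67 to 4.25 in R) and blood cell markers 2 lower of 4 (median −0.69, sums 8.85 to 17.5 and 5.13 to 12.9). Endothelial markers had 4 higher of 8 (median 0.40, sums 1.85 to 2.61 and 2.94 to 3.38). Peritubular myoid markers had 1 higher and 1 lower of 6 (median 0.06, sums 16.7 to 21.9 and 15.6 to 19.1). Fat cell markers had none called of 8 (median 0.83, sums 2.06 to 8.84 and 3.26 to 13.4), and 4 were higher without C replicate 2. Of 8 epididymal markers 1 was tested and not called (−0.04, sums 0.776 to 0.980 and 0.778 to 0.903), and 6 were not above background on any array. Without R replicate 1 and C replicate 5 the calls were 4 lower for macrophage, 0 for blood cell and 2 higher for endothelial markers. Spermatogonial markers then had 4 lower and 1 higher, and spermatocyte markers 3 lower.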

How the data were processed

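The authors deposited 1 scanner file per array, with an intensity and quality flags for each spot. The submitters' processing notes name Feature Extraction 12.0.3.1. Background subtraction and spatial detrending had been applied to the processed intensity, per the file headers, which also give mm9 for the probe annotation. The authors' deposited table held scaled intensity values, p-values, q-values and log2 ratios for 2266 probes. In it, each array's processed intensity was multiplied by 1 constant. Its 10 columns of quality calls were not used here.

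Spots flagged as outliers and control spots were left out, and spots of a probe were averaged on the log2 scale. The 33852 of 56605 probes that stood well above background on 5 or more arrays were tested. R minus C was fitted on all tested probes by limma 3.58.1 under R 4.3.3, with moderated 2-sided p-values adjusted by the method of Benjamini and Hochberg and called under 0.05. A gene stands for its brightest tested probe. Probes were named through their accession in the RefSeq table of GRCm38.p6 (33767 probes) or by the deposited symbol (234). Insl3, Hbb-bs and Mpc1l were not analysed here. The normexp correction, an alternative, used the median spot signal in place of the planned mean signal. Probe pairs were compared with exact permutation tests (SciPy 1.17.1).

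On simulated data of 33852 probes with 200 changed, the procedure recovered 77% of 2-fold and 95% of 4-fold changes and called 8 of 33652 unchanged probes. The simulated noise was independent between probes and arrays, with no slide effect and no array that stood apart. It therefore does not give the rate of false calls in the real arrays. Changes below 2-fold, as in the members, were not simulated. The members and lists were chosen with earlier results of these data known. Named are the members, up to 4 genes of smallest p of each pathway list, up to 3 of each marker list, and the 2 genes most correlated with each member. Some further list genes, Gfra1 among them, are named beside these. The number of arrays limits the precision. Alternatives changed the background correction, scaling, filter, slide, variance model, probe rule, grouping and arrays used.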

Additional observations from a re-analysis of the deposited data

How the results depend on the processing

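Under 23 alternatives, the calls of Slc16a1, Emb, Bsg and Slc2a8 were kept in 21, the exceptions being the authors' table grouping and slide 2 alone, and their sign in all. Member genes called lower numbered 4, 5 with array weights, with slide as a block or within slide 1, and 7 with the array median as reference. Those settings also called more of all genes. In either direction the main fit called 35.6% of them, slide as a block 51.6%, slide 1 alone 39.7% and the array median 41.9%. Array weights called more of all genes than the main fit as well. The higher member counts are therefore not particular to the members. Member genes called higher numbered 1, 2 over the mean of probes, and 0 with the array median as reference, with no filter, and without R replicate 1 and C replicate 5. With the table's grouping and within slide 2 the members called lower and higher numbered 0 and 0, as did all probes and genes. Leaving out 1 array gave 4 to 5 members lower and 0 to 1 higher, 9245 to 13548 probes and 4129 to 6448 genes. Of all probes 13059 were called and 6116 without R replicate 1 and C replicate 5 (genes 6001 and 2704), and 3808 genes with no filter, where more probes were tested. The cause of the other shifts was not tested.

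Slc16a7 turned to −0.18 with the array median, −0.081 with array weights, −0.16 within slide 2, and −0.0035 and −0.047 without C replicate 1 or 2 (up to 0.091 without C replicate 4). Its second probe turned to −0.21, −0.12, −0.0031 (quantile), −0.11 (slide 2), and −0.043, −0.064, −0.034 and −0.0045 without C replicate 1 or 2 or R replicate 3 or 5 (up to 0.060 without C replicate 4). Slc2a3 turned to 0.28 over the mean of probes and 0.030 within slide 1, Igf1r to 0.18 over the mean of probes, and Slc16a3 to 0.029 with the table's grouping. The difference between probes was 0.75 to 0.83 for Slc2a3 with 1 array left out. For Slc16a7 it was −0.05 to −0.01 for the second probe and 0.20 to 0.35 for the third, which passed without R replicate 3 (0.35, adjusted p = 0.0476). No paired analysis was possible because the labels carry no replicate numbers, those used here being accession order.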
